A study of Mus musculus with 3 samples.

Results

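The expression of 10 integrin chains was examined in bone marrow-derived macrophages (BMDMs): the αM (Itgam), αX (Itgax), αL (Itgal), α4 (Itga4), α5 (Itga5), α6 (Itga6), and αV (Itgav) chains, and the β1 (Itgb1), β2 (Itgb2), and β7 (Itgb7) chains. They were chosen by name, as all probes on the array that carry one of these 10 gene names, out of 34821 gene names in all. The series held 3 arrays, 1 per condition, from BMDMs of C57BL/6J mice that had been grown from bone marrow for 4 to 6 days with M-CSF at 10 units/ml, supplied as L929 conditioned medium. The labels do not say whether the cultures came from 1 mouse or several. The cells were then stimulated for 20 h with CpG alone, with IFN-γ together with a blocker of the IL-10 receptor (IFN-g+IL-10RB), or with CpG, IFN-γ, and the blocker together (Triple). CpG is DNA that is sensed by TLR9, IFN-γ is the cytokine that primes macrophages, and blocking the IL-10 receptor removes a brake on their activation. No array of unstimulated BMDMs was analysed here. The study asked which surface molecules accompany the uptake of live cells by Triple-treated macrophages.

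Integrins are adhesion receptors made of 1 α and 1 β chain, and a chain reaches the cell surface only with a partner. The β2 integrins of leukocytes bind ICAMs and, in the case of αMβ2 and αXβ2, the complement fragment iC3b on coated particles. The β1 and β7 integrins with α4 bind VCAM-1 and fibronectin, α5β1 binds fibronectin, α6β1 binds laminin, and the αV integrins bind RGD ligands such as vitronectin, osteopontin, and the apoptotic-cell bridge MFG-E8. Arrays measure the RNA of each chain and not the paired protein on the surface. In bulk RNA of a culture, fewer cells of a type and less RNA per cell cannot be told apart.

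The signal of a chain is the hybridization of labeled RNA to a printed 60-base probe, so that a change is a change of the RNA that holds those bases. A few probes from the coding part of the RNA are shown because results below turn on them. The β1 probe reads the RNA across the end of the cytoplasmic tail, and the capitals mark the codons of its pair of NPxY motifs, which bind talin and kindlin. Its bases lie within chr8:131250081-131255976 (mm9, the build of the array's annotation), a span of 5896 bases for a 60-base probe, so that it crosses a splice junction. The αL probe is the second of 3 and lies at the end of the coding sequence (chr7:134477064-134477123), and the αM probe is also the second of 3 (chr7:135260275-135260334). The α4 probe spans 1131 bases of the genome (chr2:79153985-79155115) and is the dimmer of the pair for α4.
Itgb1 probe: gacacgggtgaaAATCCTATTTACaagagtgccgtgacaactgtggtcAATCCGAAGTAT
Itgal probe: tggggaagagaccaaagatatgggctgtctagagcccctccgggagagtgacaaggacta
Itgam probe: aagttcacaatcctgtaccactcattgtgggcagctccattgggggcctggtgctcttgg
Itga4 probe: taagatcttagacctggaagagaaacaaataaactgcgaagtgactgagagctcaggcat

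All 10 chains were measured, by 17 probes without an outlier mark, and each of the 17 exceeded the background clearly (the scanner's mark for well above background) in every array. A signal is the scanner software's processed intensity in arbitrary units. It is given with the scanner's own error of that spot, which gave most folds an error of 0.20 on the log2 scale. Spots of probes printed repeatedly on 1 array differed by a pooled SD of 0.080 to 0.096 on the log2 scale, which corresponds to 0.13 for a fold between single spots. Neither error holds the difference between cultures, and with 1 array per condition there was no replicate check and no test. Folds are between arrays shifted to a common 75th percentile, and each gene is given by its brightest probe unless another is named. Because probes differ in brightness, signals are compared between arrays and not between chains.

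More than 2-fold differences in at least 1 of the 3 comparisons were found for 6 of the 10 chains, compared with 20.3% of the 15891 bright genes, meaning genes well above background in every array. These were Itgam, Itgal, Itga5, Itga6, Itgb7, and Itgav. For Triple over IFN-g+IL-10RB, Itgal and Itga5 were more than 2-fold higher and Itga6 and Itgb7 more than 2-fold lower. Among all bright genes, 5.13% were higher and 8.24% were lower in this comparison, and among all 33597 measured genes 3.53% and 5.01%. For Triple over CpG, Itgal, Itga5, and Itgb7 were higher and Itga6 was lower, against 5.99% and 7.0% of the bright genes, and 4.08% and 4.55% of all genes. For CpG over IFN-g+IL-10RB, Itgam and Itgal were higher and Itgb7 and Itgav were lower, against 3.74% and 4.84% of the bright genes, and 2.75% and 3.18% of all genes. The median size of the log2 fold, without its sign, was 0.83 over the 10 chains for Triple over IFN-g+IL-10RB, 0.59 for Triple over CpG, and 0.92 for CpG over IFN-g+IL-10RB. Over the bright genes these medians were 0.32, 0.32, and 0.26. The comparisons share arrays, so that any pair of them is not independent.

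**Figure D1:**
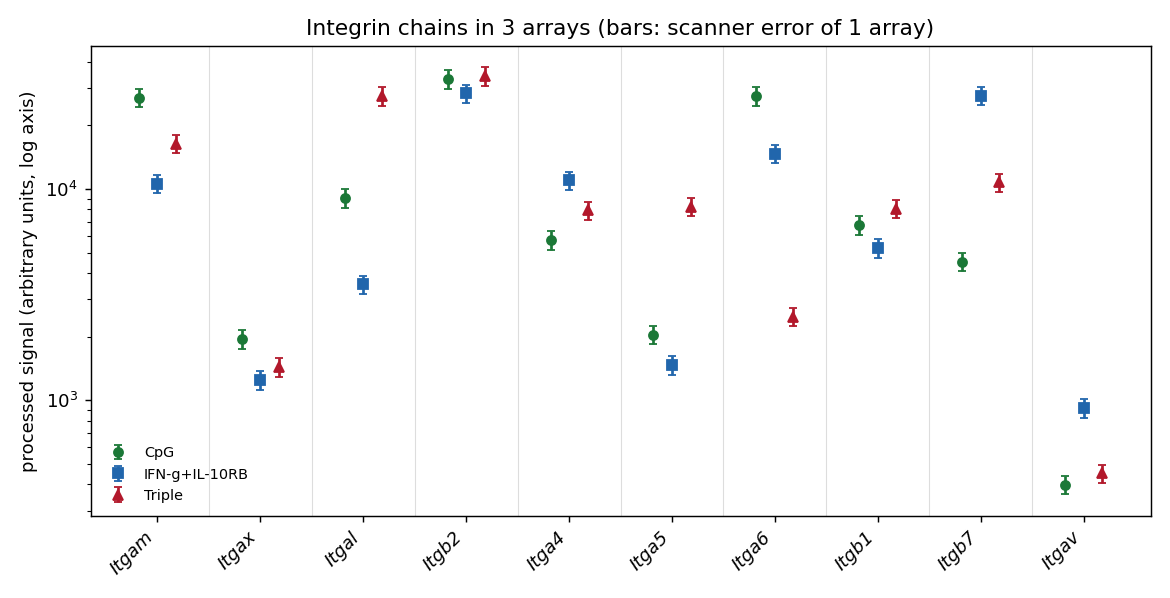
Processed signal of the 10 chains (y axis, arbitrary units, log scale) on the CpG, IFN-g+IL-10RB, and Triple arrays, with the scanner's error of the 1 spot as bars. Itgb2 ran from 28268 to 34177, while Itga6 ran from 2486 to 27522, and heights should be compared within a gene only.

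Among the β2 integrins, the shared β chain was almost level, whereas Itgal and Itgam were not. Itgb2 gave 33135 ± 3313 in CpG, 28268 ± 2827 in IFN-g+IL-10RB, and 34177 ± 3418 in Triple. Its largest log2 fold was 0.30, for Triple over IFN-g+IL-10RB, which is 1.5 times the scanner's error of a fold, so that the 3 arrays were not told apart. Only 1 probe represents this gene.

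Itgal, the α chain of LFA-1, gave 9044 ± 904 in CpG, 3532 ± 353 in IFN-g+IL-10RB, and 27495 ± 2749 in Triple. The arrays did not overlap within these errors, and the nearest pair, CpG and IFN-g+IL-10RB, differed by 6.7 times the error of a fold. Triple was 7.95-fold above IFN-g+IL-10RB (log2 2.99) and 3.16-fold above CpG (log2 1.66), and CpG was 2.52-fold above IFN-g+IL-10RB (log2 1.33). For Triple over IFN-g+IL-10RB, 99.3% of the bright genes had a lower fold. The second probe, whose sequence is shown above, gave 7249 ± 725, 2519 ± 252, and 20999 ± 2100 in the same order of arrays, for an 8.52-fold difference between Triple and IFN-g+IL-10RB. It lies just upstream of the brightest probe, which is at chr7:134477160-134477219. The third probe, designed on a different transcript record (AK154115), was dim, at 57.8 ± 7.68, 44.9 ± 7.15, and 90.2 ± 10.5. By this probe Triple was 2.05-fold above IFN-g+IL-10RB and 1.62-fold above CpG. CpG was 1.27-fold above IFN-g+IL-10RB, which is 1.1 times the error of a fold, so that these arrays were not told apart.

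Itgam, the α chain of Mac-1 (CD11b), had another order. It gave 26993 ± 2699 in CpG, 10577 ± 1058 in IFN-g+IL-10RB, and 16377 ± 1638 in Triple. CpG was 2.51-fold above IFN-g+IL-10RB (log2 1.33), and Triple lay between them, 1.58-fold above IFN-g+IL-10RB and 1.59-fold below CpG. The second probe, shown above, gave 8809 ± 881, 3458 ± 346, and 7577 ± 758. By that probe CpG was again 2.50-fold above IFN-g+IL-10RB, but Triple was 2.24-fold above IFN-g+IL-10RB and within the scanner's error of CpG (log2 -0.16). The third probe gave 383 ± 38.8, 219 ± 22.8, and 322 ± 32.8. Thus the lower signal in IFN-g+IL-10RB was seen with all 3 probes, while the distance between Triple and CpG depended on the probe.

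Itgax, the α chain of CD11c integrin, gave 1945 ± 195 in CpG, 1246 ± 125 in IFN-g+IL-10RB, and 1438 ± 144 in Triple. CpG was 1.53-fold above IFN-g+IL-10RB (log2 0.62), which is 3.1 times the error of a fold. Triple and IFN-g+IL-10RB differed by 0.24 on the log2 scale, which is 1.2 times that error. No comparison passed 2-fold. The order of the arrays was that of Itgam, which lies next to it, with their probes 32.2 kb apart on chromosome 7. Itgal is on the same chromosome, 785 kb from Itgam, and was highest in Triple.

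The promoters of this neighbouring pair are shown because the genes had the same order of arrays by their brightest probes. For Itgax that order was not resolved between Triple and IFN-g+IL-10RB, and for Itgam the distance between Triple and CpG depended on the probe. RefSeq sequence (GRCm38.p6) for the 250 bases before the start was at hand for 7 of the 10 chains, Itgam, Itgax, Itga4, Itga5, Itgb1, Itgb7, and Itgav. Capitals mark matches, on either strand, to 4 motifs that were searched: ISRE (GAAANNGAAA), AP-1 (TGANTCA), PU.1 (GAGGAA), and the NF-κB consensus. The AP-1 letters read the same on both strands. The Itgam window is chr7:128062390-128062639 and the Itgax window is chr7:128129300-128129549, both on the plus strand.
Itgam promoter: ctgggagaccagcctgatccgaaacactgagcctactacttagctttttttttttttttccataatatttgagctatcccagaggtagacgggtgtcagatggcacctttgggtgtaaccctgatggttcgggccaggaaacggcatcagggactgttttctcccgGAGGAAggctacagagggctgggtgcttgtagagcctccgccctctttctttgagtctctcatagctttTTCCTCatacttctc
Itgax promoter: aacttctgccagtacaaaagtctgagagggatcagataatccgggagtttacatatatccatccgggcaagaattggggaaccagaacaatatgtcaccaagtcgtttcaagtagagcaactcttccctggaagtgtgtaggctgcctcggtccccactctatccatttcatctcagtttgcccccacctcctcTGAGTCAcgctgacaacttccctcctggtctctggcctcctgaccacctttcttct
The Itgam window held 2 PU.1 matches, 1 on each strand, and the Itgax window held 1 AP-1 match and no PU.1 match. Of the 7 windows, 4 held the PU.1 letters (Itgam, Itga5, Itgb1, and Itgav), compared with 23.3% of all 32851 windows. AP-1 letters were in 1 of 7, compared with 6.75% of all windows. The ISRE and NF-κB letters were in 0 of the 7, and in 2.98% and 3.9% of all windows. A match is a description of the letters in this window only.

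**Figure D2:**
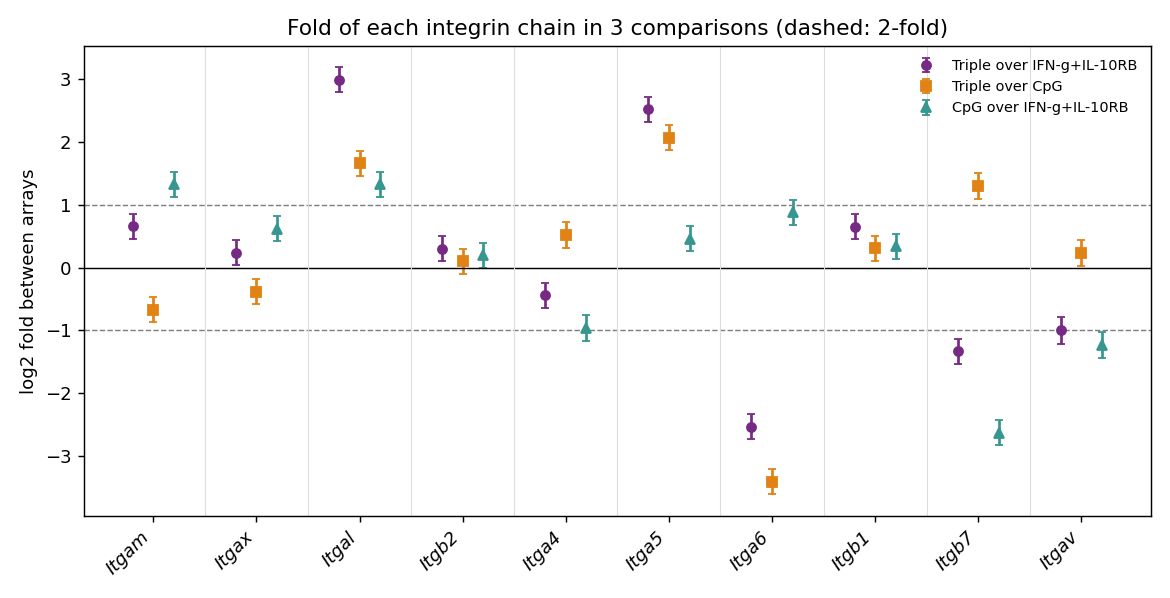
Log2 fold of each chain (y axis) for Triple over IFN-g+IL-10RB, Triple over CpG, and CpG over IFN-g+IL-10RB, with the scanner's error as bars and 2-fold as dashed lines. Itgal was 2.99 and Itga5 was 2.52 for Triple over IFN-g+IL-10RB, whereas Itga6 was -2.53, and all 3 points of Itgb2 lay between 0.10 and 0.30.

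Among the α chains that pair with β1, Itga5 was highest in Triple and Itga6 was lowest in Triple by its brightest probe. Itga5, the fibronectin receptor chain of VLA-5, gave 2046 ± 205 in CpG, 1465 ± 147 in IFN-g+IL-10RB, and 8244 ± 824 in Triple. Triple was 5.75-fold above IFN-g+IL-10RB (log2 2.52) and 4.19-fold above CpG (log2 2.07). CpG and IFN-g+IL-10RB differed by 1.37-fold (log2 0.46), which is 2.3 times the error of a fold. This chain was represented by 1 probe (chr15:103175022-103175081).

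Itga6, the laminin receptor chain, had the widest range of the 10 chains by its brightest probe. The brightest probe (chr2:71694756-71694815) gave 27522 ± 2752 in CpG, 14692 ± 1469 in IFN-g+IL-10RB, and 2486 ± 249 in Triple. By this probe, Triple was 10.7-fold below CpG (log2 -3.41) and 5.79-fold below IFN-g+IL-10RB (log2 -2.53), and 0.189% of the bright genes had a lower fold for Triple over CpG. The other Itga6 probe did not show this. It was designed on the transcript record ENSMUST00000139760, lies at chr2:71690633-71690692, and gave 4315 ± 432, 4603 ± 460, and 4453 ± 445, which are level within the scanner's error. Both probes were well above background on every array, so that the lower signal in Triple applies to the RNA read by the first probe and not to all RNA under this gene name. With the mean over both probes, Itga6 was still past 2-fold but no longer had the widest range, at log2 -1.27 for Triple over IFN-g+IL-10RB and -1.66 for Triple over CpG.

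Itgb1, the chain common to these receptors, differed less between arrays than Itga5 or the first Itga6 probe. The tail probe shown above gave 6752 ± 675 in CpG, 5249 ± 525 in IFN-g+IL-10RB, and 8051 ± 805 in Triple. Triple was 1.57-fold above IFN-g+IL-10RB (log2 0.65) and 1.24-fold above CpG, the latter 1.5 times the error of a fold. The second probe, further upstream in the coding sequence, gave 799 ± 80.1, 623 ± 62.5, and 892 ± 89.4, with log2 folds of 0.55 for Triple over IFN-g+IL-10RB and 0.21 over CpG. The order of arrays for Itgb1 was Triple, CpG, then IFN-g+IL-10RB, as for Itgal and Itga5.

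Itga4 and Itgb7, which together form the gut-homing receptor α4β7, were both highest in IFN-g+IL-10RB. Itgb7 gave 4531 ± 453 in CpG, 27578 ± 2758 in IFN-g+IL-10RB, and 10725 ± 1073 in Triple. CpG was 6.19-fold below IFN-g+IL-10RB (log2 -2.63), a fold lower than that of all but 0.724% of the bright genes, and Triple lay between them, 2.52-fold below IFN-g+IL-10RB and 2.46-fold above CpG. Itga4 gave 5728 ± 573, 10968 ± 1097, and 7902 ± 790 in the same order of arrays. The difference of CpG from IFN-g+IL-10RB was 1.95-fold (log2 -0.96), just inside the 2-fold limit. The second Itga4 probe, shown above, was dim, at 57.1 ± 7.76, 116 ± 13.0, and 100 ± 11.6, and gave 2.07-fold for the same comparison. For both chains the order was IFN-g+IL-10RB, Triple, then CpG. Itgb7 had 1 probe, at chr15:102046450-102046509.

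Itgav, the αV chain, was dimmer in both arrays that had received CpG. It gave 399 ± 40.4 in CpG, 921 ± 92.4 in IFN-g+IL-10RB, and 451 ± 45.6 in Triple. CpG was 2.35-fold below IFN-g+IL-10RB (log2 -1.23), while Triple was 2.0-fold below it (log2 -1.0) and did not pass the limit. A brighter Itgav probe (chr2:83646133-83646192) was left out because it carried an outlier mark on all 3 arrays, and it gave 1514 ± 151, 2744 ± 274, and 1273 ± 127. By that probe CpG was 1.84-fold below and Triple 2.11-fold below IFN-g+IL-10RB. The higher signal in IFN-g+IL-10RB was common to both probes, while the comparison that passed 2-fold, and the sign of Triple over CpG (log2 0.23 and -0.19), were not.

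**Figure D3:**
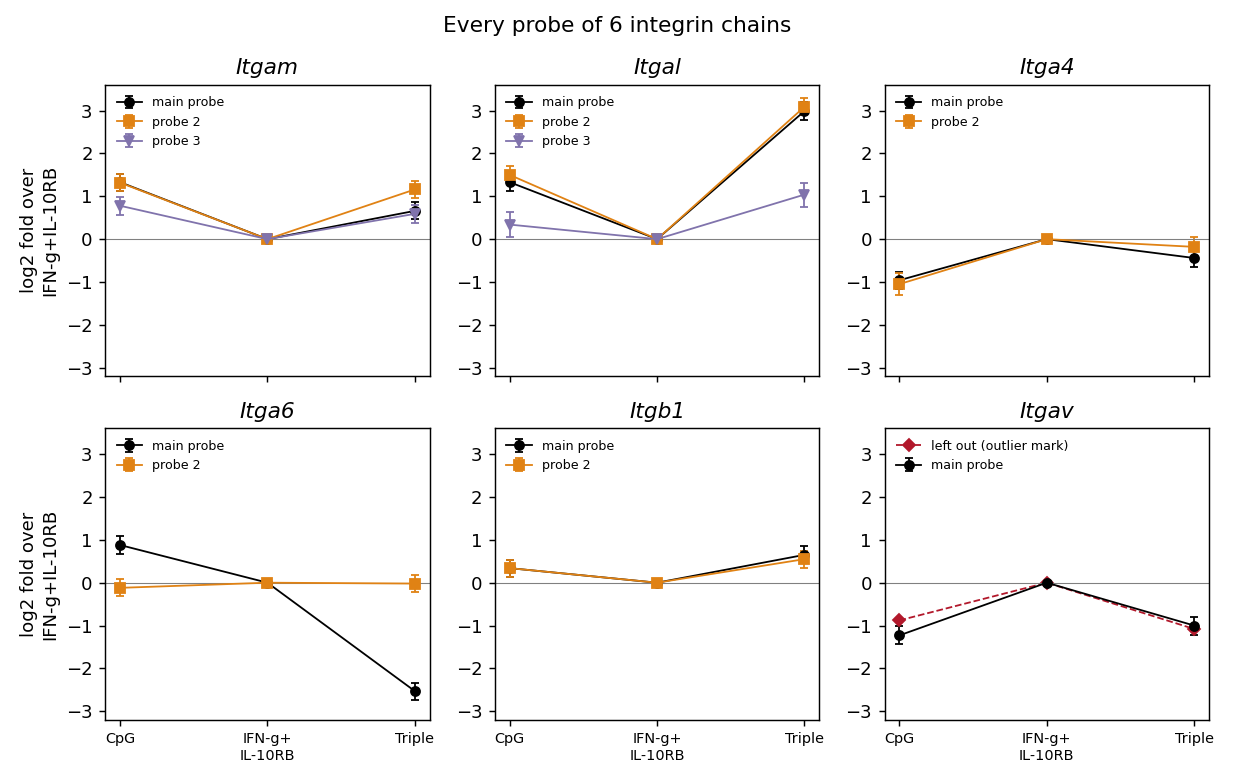
Log2 fold over the IFN-g+IL-10RB array (y axis) of every probe of the 6 chains with more than 1 probe, with scanner errors as bars where the probe was kept. The pair of Itga6 probes parted in Triple (log2 -2.53 and -0.02), the dim Itgal probe was raised less than the others (1.04 against 2.99 and 3.09), and the probes of Itgb1 and Itga4 ran close together.

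The folds of partner chains were set side by side for 8 known pairs. For αLβ2 in Triple over IFN-g+IL-10RB, the log2 fold of Itgal was 2.69 above that of Itgb2, whereas for αMβ2 the difference was 0.36 and for αXβ2 it was -0.07. In Triple over CpG, the same difference was 1.56 for Itgal, -0.77 for Itgam, and -0.48 for Itgax. The folds of the 3 α chains were therefore spread widely around that of the shared β chain. For α5β1 the α chain was 1.88 above Itgb1 in Triple over IFN-g+IL-10RB and 1.76 above it in Triple over CpG, and 0.12 above it in CpG over IFN-g+IL-10RB. For α6β1, by the brightest Itga6 probe, the difference was -3.18 and -3.72 in the comparisons of Triple. In α4β7 the chains moved the same way in each comparison, with the larger log2 fold in the β chain (for CpG over IFN-g+IL-10RB, -2.63 for Itgb7 and -0.96 for Itga4). In α4β1 they were on opposite sides of 0 for both comparisons with IFN-g+IL-10RB.

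**Figure D4:**
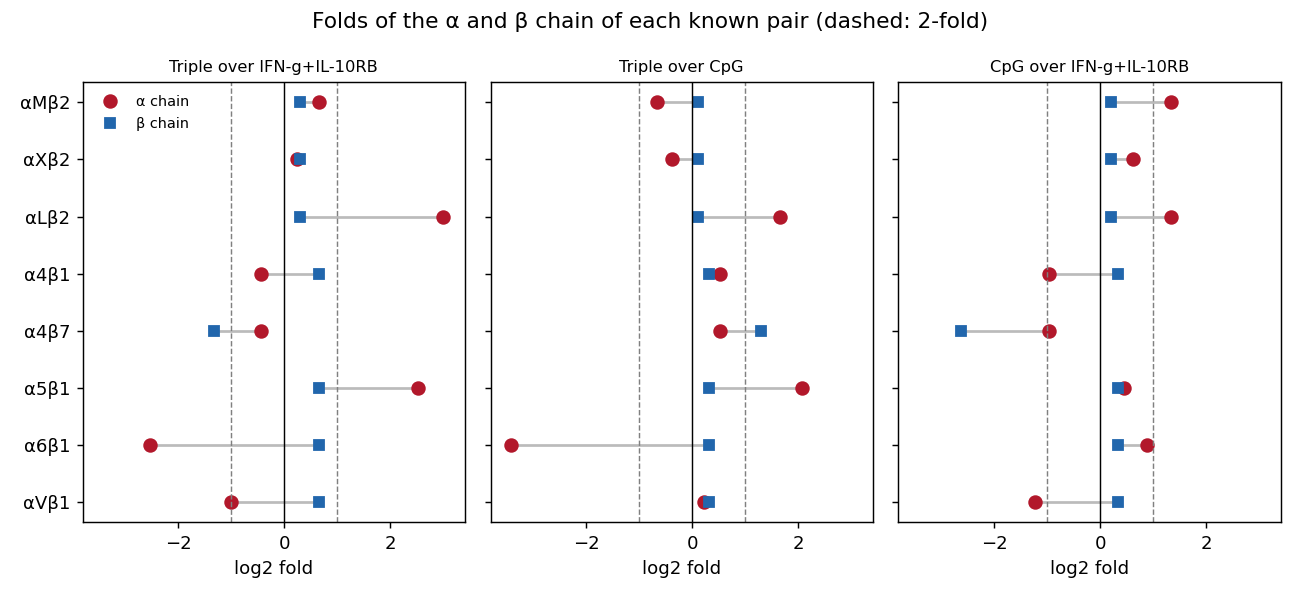
Log2 folds (x axis) of the α chain (circle) and the β chain (square) of 8 known integrin pairs (y axis) in 3 comparisons, with 2-fold dashed. The α circle of αLβ2 and of α5β1 lay more than 1.5 to the right of its β square in both comparisons of Triple, and that of α6β1 lay to the left.

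The other integrin chains were mostly dim. Of 17 further chains on the array, 8 were well above background on at least 1 array. Itgb5, which pairs with αV, gave 18808 in CpG, 23952 in IFN-g+IL-10RB, and 5153 in Triple, a 4.55-fold lower signal in Triple than in IFN-g+IL-10RB. Itgb3, the other macrophage partner of αV, gave 303 and 51.1 in CpG and IFN-g+IL-10RB and 21.0 in Triple, where it was not well above background. By this probe, CpG was 5.82-fold above IFN-g+IL-10RB and at least 11.1-fold above Triple. A second Itgb3 probe was dim but well above background in CpG (35.3) and Triple (38.8), and not in IFN-g+IL-10RB (5.56). It put Triple level with CpG and above IFN-g+IL-10RB, so that Itgb3 in both comparisons of Triple depends on the probe. Itga9, which pairs with β1 and binds tenascin, osteopontin, and VCAM-1, gave 2518, 274, and 2953, with CpG 9.05-fold above IFN-g+IL-10RB (log2 3.18) and Triple higher still (log2 3.46). Itga8 (98.6, 175, and, below background, 6.45) was past 2-fold in both comparisons of Triple, and Itgb4, a partner of α6 (70.5, 87.2, and 35.5), in Triple over IFN-g+IL-10RB alone. The brighter of the 2 Itga1 probes gave 7.85 and 7.55, both below background, and 53.1 in Triple, whereas the second was below background on all 3 arrays (5.98, 6.38, and 6.27).

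Ligands of these receptors were counted as a list of 33. Of these, 32 were measured, meaning with a probe free of outlier marks on every array, and 17 were well above background on at least 1 array. The ligand not measured was fibronectin (Fn1), so that nothing is said here of this ligand of α5β1 and α4β1. For Triple over IFN-g+IL-10RB, 5 were more than 2-fold higher and 2 lower, where 5.13% and 8.24% of the bright genes were. Over all measured genes these shares were 3.53% and 5.01%. For Triple over CpG, 6 were higher and 2 lower (5.99% and 7.0% of the bright genes, 4.08% and 4.55% of all measured genes). For CpG over IFN-g+IL-10RB, 2 were higher and 2 lower (3.74% and 4.84% of the bright genes, 2.75% and 3.18% of all). The median log2 fold of the ligands bright in both arrays was 0.16, -0.06, and 0.04, against -0.04, -0.05, and -0.00 over all bright genes. Of the partners of LFA-1, Icam1 gave 1803 in CpG, 1955 in IFN-g+IL-10RB, and 9420 in Triple, which is the array in which Itgal was also highest. Icam2, another LFA-1 ligand, was lowest there, at 2748, 8753, and 1911, and F11r, the junctional molecule JAM-A, gave 972, 2205, and 2717. Vcam1, the ligand of α4β1 and α4β7, gave 383, 575, and 1759. A second, dimmer Vcam1 probe gave 53.6, 43.5, and 121. Triple was highest by both probes, while the order of CpG and IFN-g+IL-10RB depended on the probe. C3, the source of the iC3b bound by αMβ2 and αXβ2, gave 79830, 28989, and 280736. Thbs1, thrombospondin 1, which binds several integrins, gave 116, 189, and 5446, and Pecam1, a homophilic adhesion molecule that can bind αVβ3, gave 83.8, 71.8, and 249. Spp1 and Mfge8, which bind αV integrins, were lowest in Triple. Spp1, osteopontin, gave 15037, 6714, and 2156, and Mfge8 gave 63047, 35450, and 24291.

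**Figure D5:**
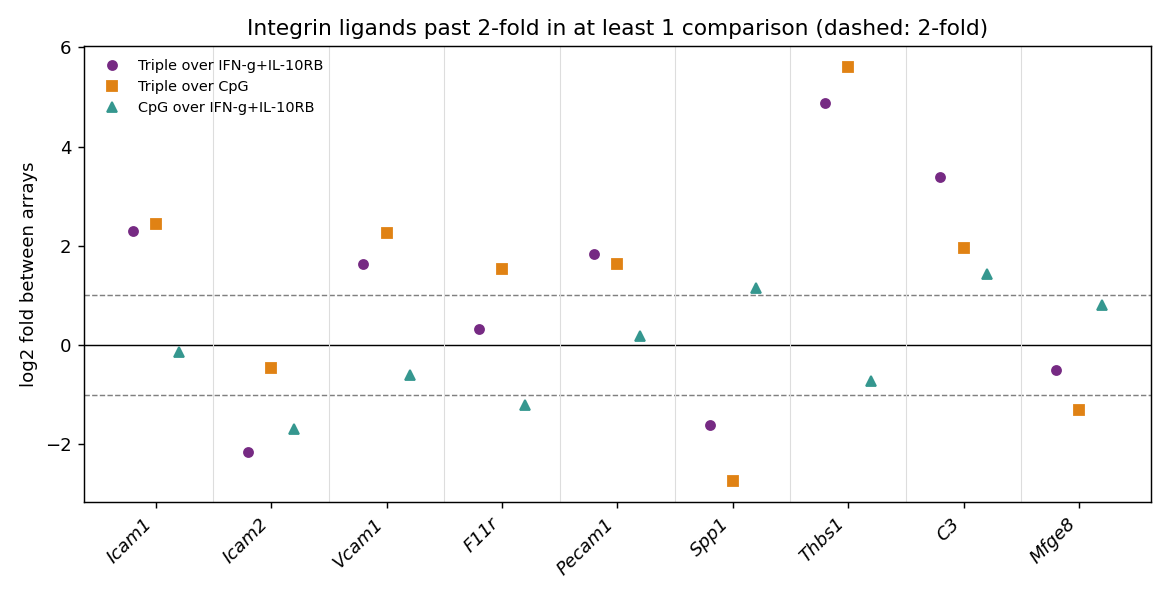
Log2 fold (y axis) of the 9 listed ligands past 2-fold in at least 1 of the 3 comparisons, with 2-fold dashed. Thbs1 and C3 were the highest in Triple over IFN-g+IL-10RB (4.88 and 3.38), and Spp1 and Mfge8 were lower in Triple than in either other array.

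Proteins that activate integrins or tie them to actin formed a list of 41. Of these, 40 were measured in the same sense, all but Rap1a, and 37 were well above background on at least 1 array. For Triple over IFN-g+IL-10RB, 5 were higher and 4 lower, where 5.13% and 8.24% of the bright genes were, and 3.53% and 5.01% of all measured genes. For Triple over CpG 2 were higher and 3 lower (5.99% and 7.0% of the bright genes, 4.08% and 4.55% of all). For CpG over IFN-g+IL-10RB 9 were higher and 3 lower (3.74% and 4.84% of the bright genes, 2.75% and 3.18% of all). The activators that bind β tails were not past 2-fold. Tln1, talin, gave 95487, 67971, and 89179, and Fermt3, the leukocyte kindlin, gave 13755, 10729, and 15924. Of the genes that act with Rap1, the GTPase that recruits talin, Rasgrp2, Rasa3, and Apbb1ip passed 2-fold in at least 1 comparison, and Rap1b, Rapgef1, and Rassf5 in none. Rasgrp2, an exchange factor for Rap1, gave 465 in CpG, 125 in IFN-g+IL-10RB, and 60.1 in Triple, and Rasa3, which inactivates Rap1, gave 14278, 21192, and 5427. Apbb1ip (RIAM), which links Rap1 to talin, gave 30688, 13478, and 22118. Cytip, which holds the LFA-1 regulator cytohesin-1, gave 625, 1240, and 2384. Vcl, vinculin, gave 2501, 238, and 1768, so that IFN-g+IL-10RB was the low array. The kinases Syk (32408, 9302, and 52628) and Fgr (414, 92.9, and 302), which signal below β2 integrins, and Rac2 (110497, 35731, and 123196) were lowest in IFN-g+IL-10RB. Zyx, zyxin (16267, 49312, and 35061), and Parvg, the leukocyte parvin (1777, 4007, and 1486), were highest there.

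Of 13 surface proteins that associate with integrins, all 13 were well above background on the arrays. Plaur, the urokinase receptor that pairs with αMβ2, gave 4068, 1794, and 5907. The tetraspanins Cd9, at 15341, 8504, and 6182, and Cd81, at 24448, 10945, and 4378, were lowest in Triple, and Cd81 was 5.37-fold below CpG. These 3 were the only ones of the 13 past 2-fold in at least 1 comparison, where 20.3% of the bright genes were.

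The label of the cells was checked with markers of macrophages and of other cells that a bone marrow culture could hold. Of 9 listed macrophage marker names, 7 were measured, all but Adgre1 and Lyz2. Adgre1 is another name of Emr1, so that this gene was measured and is among the 7. Emr1 gave 151532 in CpG, 80481 in IFN-g+IL-10RB, and 134178 in Triple. All 7 were well above background in all 3 arrays, with a summed signal of 506671 to 589018. Of the 7 T cell markers, Cd3e (858, 869, and 806, in the order CpG, IFN-g+IL-10RB, and Triple), Cd4 (1646, 1943, and 1817), and Lck (94.4, 169, and 150) exceeded background on every array, and Cd3d, Cd3g, Cd8a, and Cd2 on none, with summed signals of 2630, 3006, and 2798. Of the 3 NK cell markers, 0 were well above background on any array. Of 5 B cell markers 2 were well above background on each array, Cd79a and Cd79b. Cd79b (801, 182, and 108) gave most of the summed signal, whereas Cd79a (66.6, 75.5, and 43.6) was highest in IFN-g+IL-10RB. The summed signal of 885, 278, and 184 had the order of arrays of the brightest Itga6 probe. So did the summed signal of the 4 platelet-lineage markers, at 47427, 32056, and 11073, nearly all of it Pf4. Gp1bb (35.4, 37.4, and 34.0) was well above background on all 3 arrays, Ppbp on CpG alone, and Gp9 on none. The summed signal of 8 neutrophil markers, at 3850, 9457, and 4879, had the order of Itgb7. Ly6g (555, 7699, and 2658) had that order, whereas Elane (2839, 1615, and 1539), S100a8 (297, 55.7, and 517), and Camp (72.9, 17.5, and 139) did not. S100a9 was dim (58.0, 38.3, and 8.10) and Ngp, Ltf, and Mpo were not well above background on any array. The 5 dendritic-cell markers summed to 36126, 38006, and 30095, mostly from Siglech, and Clec9a (5.35, below background, 1963, and 152) had the order of Itgb7. Zbtb46 (25.1, 36.3, and 133) and Xcr1 (6.35, 6.80, and 60.7) were highest in Triple, and Flt3 was not well above background on any array. Of 4 stromal markers measured, 3, 2, and 3 were well above background, with summed signals of 539, 326, and 586. Of 4 endothelial markers, Kdr gave 5344, 5725, and 5706, Cdh5 was well above background in CpG alone, and Tek and Emcn in none. Of 3 mast-cell or basophil markers measured, only Kit exceeded background (95.0, 5.82, below background, and 48.8). No erythroid marker was well above background on any array. The part of these cells in the integrin signals was not tested. All 3 arrays were on 1 slide, had no saturated spot, and had 44.39% to 46.03% of spots well above background.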

How the data were processed

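BMDM RNA was labeled with Cy3 and hybridized to 8 × 60K mouse arrays, 1 array per condition. The authors deposited files from Agilent Feature Extraction 10.10.1.1, per the file headers, in which the processed signal is a linear, background-subtracted and spatially detrended intensity, not scaled between arrays. A second table that they deposited holds log2 values, and each of its columns proved to be the log2 processed signal minus 1 constant, with column medians of -4.262, -4.377, and -4.268, in the order CpG, IFN-g+IL-10RB, and Triple. How that constant was chosen is not given in the sources used here.

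Spots that were controls or carried an outlier mark were removed, replicate spots were averaged as log2 values, and arrays were then aligned on the 75th percentile, taken over probes well above background in every array. A gene took its brightest probe. Dim signals were raised to the lowest signal well above background of their array, which makes a fold against them a lower bound. A gene was past the threshold if the brighter array was well above background and the fold exceeded 2. With 1 array per condition no p-value is given, and the number of arrays limits the precision.

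The 10 integrin chains and the lists of other chains, ligands, linkage proteins, surface partners, and markers were chosen with earlier results of these data known. Genes of those lists could be named if they passed 2-fold in at least 1 comparison, with Itgb3 and Itgb5 always given, and the 3 genes nearest in profile were taken for the chain with the widest range. Tln1, Fermt3, Rap1b, Rapgef1, and Rassf5 fall outside this rule and were named after their values were seen. Fn1 and Rap1a were named only as not measured. Calls were made over all 33597 genes measured. Alternatives were normexp background correction (offset 50), scaling by quantiles, the median, spike-ins, or not at all, the percentile over all probes, the authors' table, no filter, both arrays above background, outlier spots kept, the mean over probes, and thresholds of 1.5-fold and 3-fold. Promoter sequences came from RefSeq (GRCm38.p6). The calling was tested on simulated arrays. Calculations used Python 3.11.15, numpy 2.4.6, pandas 2.3.3, R 4.3.3, and limma 3.58.1.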

Additional observations from a re-analysis of the deposited data

How the results depend on the processing

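No paired analysis was possible because there was a single array for each treatment. Of 12 folds past the threshold among 30, 11 stayed past it under all 11 alternatives run for single chains. The exception was Itgav for CpG over IFN-g+IL-10RB, which was -0.88 (log2) with outlier spots kept, when its brighter probe is used. Calls were gained for Itga4 in CpG over IFN-g+IL-10RB with spike-in scaling (-1.0) and with the mean over probes (-1.01), and for Itgav in Triple over IFN-g+IL-10RB with no scaling (-1.03), spike-in scaling (-1.14), and outlier spots kept (-1.07). No value past the threshold changed sign under these alternatives. The number of chains past the threshold, 4 in each comparison, changed with the threshold by construction. At 1.5-fold it was 7 for Triple over IFN-g+IL-10RB, 5 for Triple over CpG, and 7 for CpG over IFN-g+IL-10RB. In that order, 7.16%, 7.79%, and 6.1% of all genes were then higher, and 9.36%, 8.98%, and 6.99% lower. At 3-fold the counts were 3, 3, and 1. The shares of all genes were then 1.85%, 2.1%, and 1.25% higher, and 2.45%, 2.09%, and 1.53% lower. Spike-in scaling moved the median of the bright genes to -0.188 for Triple over IFN-g+IL-10RB and -0.15 for Triple over CpG, so that folds of single chains there should be read against that shift. The mean over probes gave the largest shifts for chains whose probes differ, such as Itga6 in Triple over CpG (-1.66).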

Other observations

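By brightest probes, Itga6 had the widest range of the 10 chains (log2 3.41), although with the mean over its probes it spanned less than Itgb7, Itga5, or Itgal. Using the brightest probe, 3 genes were nearest to its profile over the 3 arrays, out of 10456 genes well above background on all arrays whose names have the form of a gene symbol, with clone, predicted-gene, and longer names left out. They were Scd2, a stearoyl-CoA desaturase, Gas6, the bridging ligand of the TAM receptors, and Agap1, an Arf GTPase-activating protein. Scd2 gave 2463 in CpG, 1443 in IFN-g+IL-10RB, and 219 in Triple, at a distance of 0.12 (log2, Euclidean). Gas6 gave 40574, 21687, and 3249, at a distance of 0.142, and Agap1 gave 655, 392, and 67.3, at 0.143. In all, 17 genes lay within 0.5 of Itga6. A profile over 3 arrays has few points, and the second Itga6 probe was level over them.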
